A study of Mus musculus with 8 samples.

Results

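The genes described here encode the subunits and regulators of the proteasome in the striatum of adult mice. They are the protein-coding genes of the deposited count table whose mouse symbol begins with Psma, Psmb, Psmc, Psmd, Psme or Psmf, with Psmb8 and Psmb9 left out, which gave 44 members of 31417 genes listed. RNA was sequenced in 4 striatal libraries of mice labelled Dclk3 knock out (KO) and 4 of wild-type (WT) controls, all aged 12 months, with a single striatum in each library. Dclk3 is a kinase gene enriched in the striatum, which receives most cortical input to the basal ganglia. The sources used here do not give the deleted part of Dclk3, the strain or the sex of the mice. The labels name neither a driver of the deletion nor an agent given to either group.

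The proteasome is the protease that degrades ubiquitin-tagged proteins in the cytosol and the nucleus. Its 20S core is a barrel of stacked rings, in which alpha subunits form the gated outer rings and beta subunits form the inner rings that hold the cutting sites. The 19S cap binds the tagged protein, removes the ubiquitin, unfolds the chain with a ring of ATPases and feeds it into the core. Other activators, such as the PA28 and PA200 proteins, can take the place of the cap. In neurons the proteasome is known for its part in synaptic protein turnover and in the clearance of misfolded proteins.

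By role the 44 members were 8 alpha and 9 beta subunits of the 20S core, 6 ATPases and 11 other subunits of the 19S cap, 6 activators or inhibitors and 3 chaperones of 19S assembly. The remaining member, Psmc3ip, shares the prefix but encodes a meiotic recombination factor and is no proteasome subunit. The members lie on 16 chromosomes, with 10 of them on chromosome 11 and 6 each on chromosomes 2 and 14. A pair of core genes, Psmb5 and Psmb11, lie in opposite orientation on chromosome 14 with 3410 bases between them, and the partner genes Psme1 and Psme2 lie 5911 bases apart on the same chromosome.

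Promoter sequences of the members were examined for base content and for short runs of letters. A promoter table from RefSeq for the GRCm38.p6 build matched 36 of the 43 proteasome genes, and the 250 bases before each annotated start were searched on both strands. These windows were rich in CpG pairs, with a median of 15 per window against 6 over all promoters in the table. The letters CCGGAAGT, a core of sites for ETS family factors, occurred in 13.9% of the proteasome genes against 3.23% of all 27025 genes. They hold a CpG pair, and windows matched for CpG pairs were not compared. Of the 5 genes that held CCGGAAGT, 4 encode 19S cap subunits (Psmc1, Psmc2, Psmd6 and Psmd12) and 1 encodes the activator PA200 (Psme4). Of 13 core genes, 0 held it, and 13 genes are too few to set this apart from the 3.23% of all genes. The GENCODE annotation counts the match as transcribed in Psmc1 and Psmd12, and as partly transcribed in Psmd6 and Psme4. The letters TGACNNNGC, the core of the antioxidant response element through which the factor encoded by Nfe2l1 is known to drive proteasome genes, occurred in 13.9% of the proteasome genes against 11.5% of all genes. They stood in the promoters of Psmb5, Psmb6, Psmc6, Psmd9 and Psmd12. The letters CCAAT occurred in 36.1% of the proteasome genes against 37.5% of all genes, and TATAAA in 8.33% against 14.3%. The letters searched do not overlap each other in the windows printed here, and the shares are descriptions of letters, not of binding.

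The promoters of Psmb5, Psmb6 and Psmc2 are printed because these genes have values given later and their matches lie outside the transcribed part. Psmb5 and Psmb6 encode catalytic core subunits and have TGACNNNGC starting 47 and 9 bases before the RefSeq start. Psmc2 encodes a cap ATPase and has the reverse complement of CCGGAAGT starting 85 bases before the start of the window shown, which is 1 of its RefSeq starts. Capitals mark these matches, each sequence reads 5′ to 3′ on the strand of its gene, and bases that the GENCODE annotation counts as transcribed were removed (27 in Psmb5 and 0 in Psmb6 and Psmc2).
Psmb5, minus strand, chr14:54618023-54618245: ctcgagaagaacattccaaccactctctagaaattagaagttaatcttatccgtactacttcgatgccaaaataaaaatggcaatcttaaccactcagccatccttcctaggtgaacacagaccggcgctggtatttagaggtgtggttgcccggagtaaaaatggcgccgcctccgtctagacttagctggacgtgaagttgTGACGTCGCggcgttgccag
Psmb6, plus strand, chr11:70525107-70525356: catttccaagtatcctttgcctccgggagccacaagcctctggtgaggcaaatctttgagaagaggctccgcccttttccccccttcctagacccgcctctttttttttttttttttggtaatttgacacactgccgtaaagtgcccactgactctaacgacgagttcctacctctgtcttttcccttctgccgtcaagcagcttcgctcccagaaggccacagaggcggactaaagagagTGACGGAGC
Psmc2, plus strand, chr5:21785025-21785274: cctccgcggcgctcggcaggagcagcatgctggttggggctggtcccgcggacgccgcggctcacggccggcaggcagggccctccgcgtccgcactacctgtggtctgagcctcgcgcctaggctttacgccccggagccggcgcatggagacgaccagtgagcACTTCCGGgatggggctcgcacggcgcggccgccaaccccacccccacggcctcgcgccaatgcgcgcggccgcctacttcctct

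Total gene counts ran from 24441242 to 37145559 per library, and values are given as TMM-scaled CPM, the share of a library's counts on a common scale. Dclk3 averaged 22.7 CPM ± 3.55 in KO and 94.7 CPM ± 15.8 in WT (SD, n = 4 each), with no overlap between the genotypes (exact two-sided permutation test, p = 0.0286, the smallest this design allows). All 10 spiny neuron markers were measured, with sums of 4377 to 5005 CPM in KO and 4412 to 5244 CPM in WT. KO replicate 4 and WT replicate 4 lay at the ends of the first principal component, with 26.8% of the variance. The 4 choroid plexus markers summed to 39.4 to 222 CPM in KO and 29.4 to 2830 CPM in WT, with the highest sum in WT replicate 4. Some values without replicate 4 of both genotypes are given below, for single members and for the number of genes past the threshold.

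Proteasome transcripts were abundant and steady in the striatum. The 44 members together made up 0.284% of the scaled counts in KO and 0.292% in WT. Their sum was 2886, 2809, 2896 and 2786 CPM in KO replicates 1 to 4, against 2866, 2927, 3060 and 2844 CPM in WT replicates 1 to 4. The groups overlapped, and WT replicate 3 was the highest of the 8 libraries. In bulk tissue, fewer cells of a type and less RNA per cell cannot be told apart. Of the 44 members, 43 passed the filter on low counts. Their biological coefficient of variation is the edgeR estimate of the spread between libraries beyond counting error, pulled toward that of genes of like level. This estimate had a median of 7.16%, against 10.0% over the 16511 genes tested. Genes of matched level were not compared, so the lower spread is not shown to be particular to the proteasome. The estimate was lowest in Psmc1 at 5.81% and highest in Psma8 at 19.8%, a testis form of the alpha ring counted at 6 to 18 reads per library. The plain coefficient of variation of CPM over the 8 libraries was 2.21% in Psmc1 and 32.5% in Psma8, so the estimate is not the observed spread.

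Expression per length differed widely between subunits that are known to be present in equal number in the barrel. Divided by the length of the principal transcript, which the APPRIS tags of the annotation mark, the 14 constitutive core subunits had a median level of 56.7 CPM per kilobase ± 2.2 in KO and 58.3 CPM per kilobase ± 3.05 in WT (SD, n = 4 each). The 17 cap subunits had 54.4 CPM per kilobase ± 2.24 in KO and 55.9 CPM per kilobase ± 2.55 in WT. Under this length, which was added after seeing the data, the core and cap medians had a ratio of 1.04 in each genotype (SD 0.0188 in KO and 0.0130 in WT, n = 4 each). Within the core, the constitutive alpha subunits had a median of 32.6 CPM per kilobase in KO and 33.1 CPM per kilobase in WT. The constitutive beta subunits had 58.0 and 61.5 CPM per kilobase. With the union of all annotated exons, the length planned as the main one, the ratio was 0.879 ± 0.0292 in KO and 0.844 ± 0.0357 in WT. The side of 1 on which the ratio falls therefore depends on the length used, and levels per length carry the error of the annotation. How reads that match several places were counted is not known, and its part in the differences between subunits was not tested.

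Among the constitutive alpha subunits, Psma6 had the highest level per principal transcript length, 93.1 CPM per kilobase over the 8 libraries, and Psma3 the lowest, 6.93 CPM per kilobase, a 13.4-fold range. Psma3 and Psma5 were the lowest pair of these under each length tried, and the testis form Psma8 lay below them at 0.259 CPM per kilobase. In the beta ring, Psmb6, which carries the caspase-like site, was highest at 112 CPM per kilobase, while Psmb5, which carries the chymotrypsin-like site, had 22.3 CPM per kilobase. Psmb10, the inducible form of the trypsin-like subunit, had 22.4 CPM per kilobase, against 72.8 CPM per kilobase for its constitutive counterpart Psmb7. With the exon union the same genes had 17.2 and 24.7 CPM per kilobase, so the gap depends on the length used. The thymus subunit gene Psmb11 was at 0 to 9 counts per library and was removed by the filter.

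Among the cap subunits, the ATPase gene Psmc5 was highest at 123 CPM per kilobase and the lid gene Psmd11 lowest at 14.8 CPM per kilobase, under the principal transcript length. The activators and inhibitor without the retrogene Psme2b were lower as a group, with a median of 10.4 CPM per kilobase ± 0.511 in KO and 10.7 CPM per kilobase ± 1.33 in WT (SD, n = 4 each). Within them Psme3, which encodes the nuclear activator PA28 gamma, was highest at 35.0 CPM per kilobase, and Psmf1, which encodes the inhibitor PI31, was lowest at 9.17 CPM per kilobase. With the exon union Psme2 was lowest at 5.28 CPM per kilobase, next to Psmf1 at 5.43 CPM per kilobase, and Psme2b had 0.583 CPM per kilobase under either length. The plot of levels per length orders the members within each role.

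**Figure D1:**
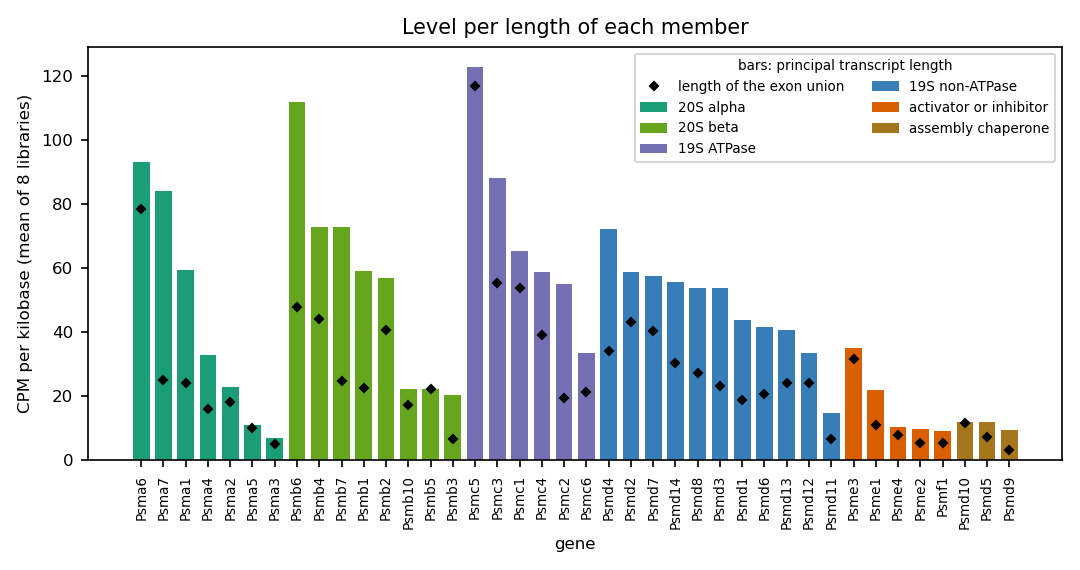
Level of 40 proteasome genes in CPM per kilobase (y axis, mean of the 8 libraries), by gene (x axis), with bars for the length of the principal transcript and diamonds for the union of exons. Psmc5 has the tallest bar, 123 CPM per kilobase, and Psma3 the shortest, 6.93 CPM per kilobase.

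The comparison of KO with WT asks whether loss of Dclk3 went with a change in proteasome expression. Of the 43 members tested, 0 passed the threshold of 0.05 after Benjamini-Hochberg adjustment over all genes (edgeR quasi-likelihood test), and the adjusted p was 0.999 for each. The background share was 0.00606%, which is 1 of 16511 genes, Dclk3 itself. At an unadjusted p under 0.05 the count was 0 of 43 members, against 3.76% of all genes tested. The DESeq2 Wald test placed 0 of 44 members past the adjusted threshold and 0 under an unadjusted p of 0.05, against 2.21% of all genes in that test. Limma-voom placed 0 of 43 past the adjusted threshold and 3 of 43 under an unadjusted p of 0.05, against 4.26% of all genes in that fit. Without WT replicate 4, edgeR placed 0 of 43 past the adjusted threshold and 3 of 43 under an unadjusted p of 0.05, against 6.67% of all genes. The genotypes did not overlap for 1 member, Psmc3ip, against 1.93% of all genes.

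How large a difference these libraries could still hide is set by the intervals. For 38 of 43 members, or 88.4%, the 95% interval stayed between a 1.25-fold decrease and a 1.25-fold increase. The share was 54.8% of all genes tested, which were not matched for level. All 17 cap subunits were among the 38 members, and 13 of 16 core subunits tested. The 5 exceptions were Psma8 and Psme2b, both under 1 CPM, Psmc3ip, Psmb4 and Psmb5. For Psmb4 and Psmb5 the intervals reached down to -0.41 and -0.39 on the log2 scale, so the data leave room for a decrease of that size.

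**Figure D2:**
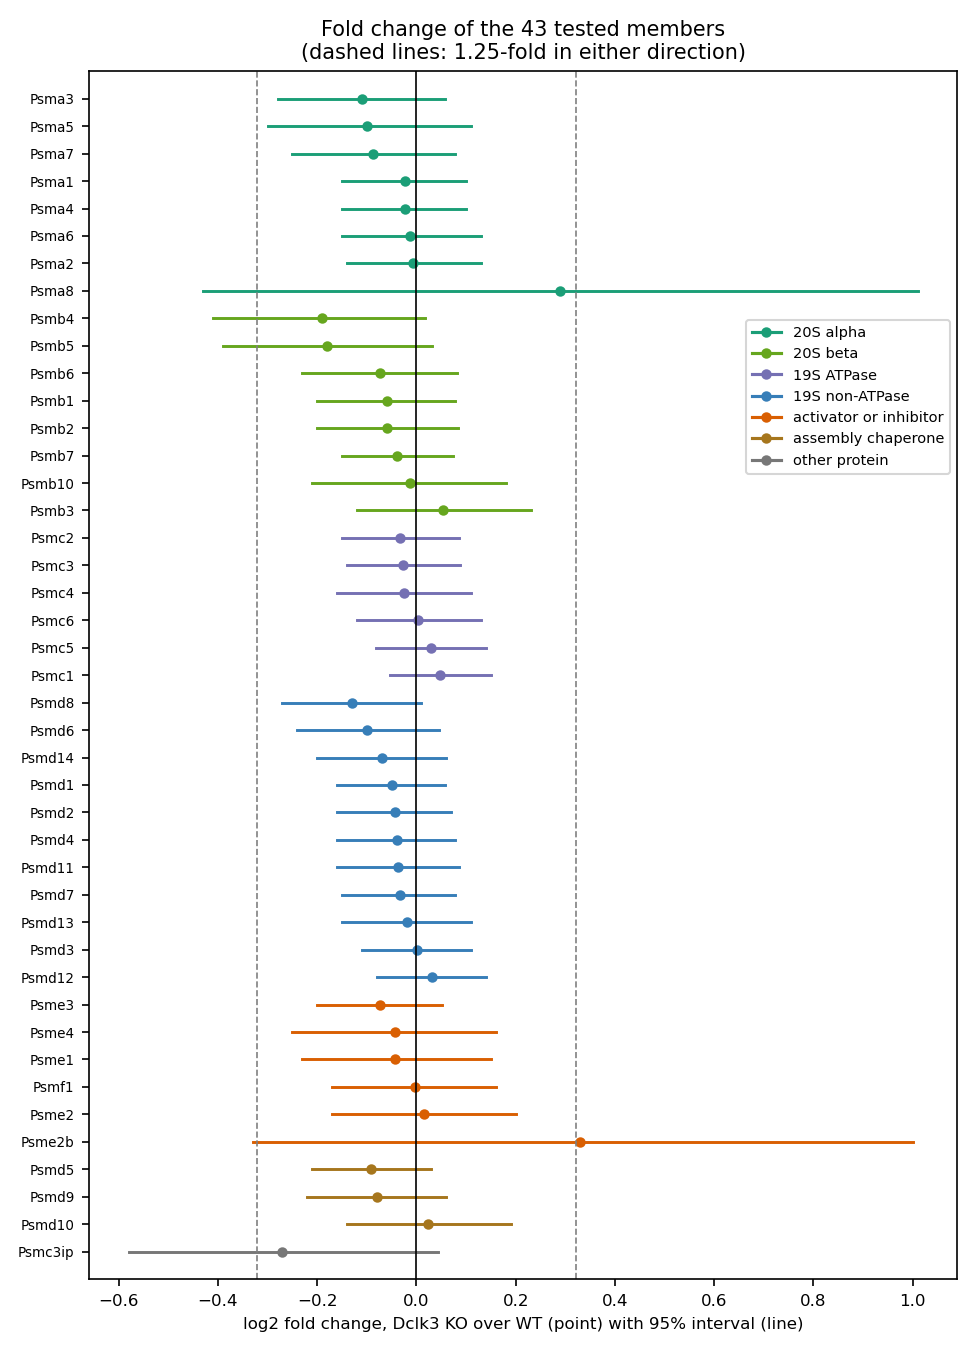
Log2 fold change of the 43 tested members, KO over WT (x axis, points) with 95% intervals (lines), ordered by role (y axis) and coloured by class. Each interval includes 0, and 38 of 43 lie between the dashed lines at 1.25-fold.

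Fold changes leaned slightly below 0. Of the 43 members, 33 were below 0 with a median log2 fold change of -0.037, a level 2.55% lower in KO, against 50.5% of all genes below 0 and a median of -0.0011. Without WT replicate 3 the median of the members was -0.0070 with 26 of 43 below 0, and without KO replicate 4 it was -0.020 with 29 of 43. The lean was smaller without either library. Members were most often highest in the former and most often lowest in the latter, so leaving either out was bound to raise the fold changes. These values therefore do not show where the lean comes from. With another single library left out the median reached -0.054. Marker lists of other cells and regions also differed in direction between the genotypes, with 0 genes past the adjusted threshold in each. Log2 fold changes were above 0 for 6 of 6 oligodendrocyte markers (median 0.19) and 6 of 7 astrocyte markers (0.15). Blood (5 of 5, 0.48), thalamic (5 of 5, 0.50), microglia (5 of 5, 0.093) and endothelial (4 of 5, 0.26) markers also lay above 0. Cortex markers were below 0 in 4 of 4 (-0.20) and choroid plexus markers in 4 of 4 (-2.43). At an unadjusted p under 0.05 (edgeR) there were 3 astrocyte, 3 blood, 2 oligodendrocyte and 1 endothelial marker, against 3.76% of all genes tested. The other marker lists had 0. The part of these cells in the lean of the proteasome genes was not tested.

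The 20S core had 14 of 16 tested subunits below 0 and a median log2 fold change of -0.050. The 19S cap had 12 of 17 below 0 and a median of -0.034, and the activators and inhibitor had 4 of 6 below 0 and a median of -0.023. Core and cap medians differed by -0.016. Without WT replicate 3 the medians were -0.0096 for the core, -0.0018 for the cap and 0.029 for the activators and inhibitor. Direction in the activators and inhibitor also turned without KO replicate 3 (0.017) and without WT replicate 4 (0.011).

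The class score, which is the mean over a class of each gene's log2 CPM minus its mean over the 8 libraries, leaves out the members under 1 CPM. For the core it was -0.010, -0.035, 0.011 and -0.085 in KO replicates 1 to 4, against -0.026, 0.054, 0.16 and -0.066 in WT replicates 1 to 4. The genotypes overlapped, with WT replicate 3 highest and KO replicate 4 lowest. For the cap it was 0.0096, -0.038, 0.015 and -0.045 in KO replicates 1 to 4, against -0.0081, 0.010, 0.069 and -0.013 in WT replicates 1 to 4. Again WT replicate 3 was highest and KO replicate 4 lowest. The core score minus the cap score averaged -0.015 ± 0.019 in KO and 0.015 ± 0.063 in WT (SD, n = 4 each), with overlapping groups. Gene by gene, WT replicate 3 was the highest library for 21 of 41 members, or 51.2%, against 15.2% of all genes tested, and KO replicate 4 was the lowest for 17 of 41, or 41.5%, against 14.9%.

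**Figure D3:**
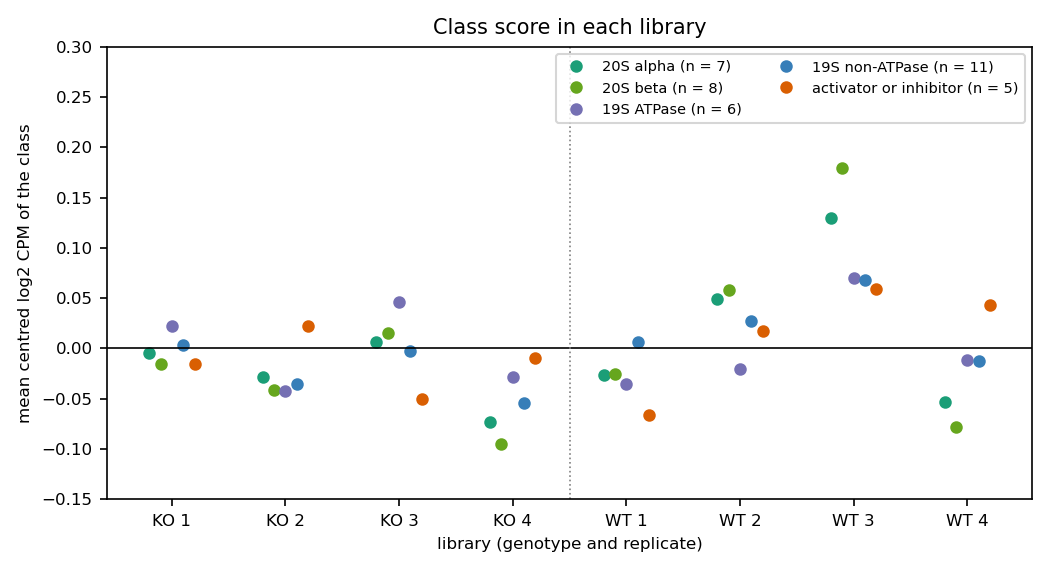
Mean centred log2 CPM (y axis) of 5 proteasome classes in each library (x axis), with KO to the left of WT and 1 point per class. All 5 classes lie above 0 in WT replicate 3, up to 0.18 for the beta subunits, and the genotypes overlap.

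Transcript length went with the difference between WT replicates 3 and 4. Among all genes tested, those with the shortest exon length (up to 2570 bases, quartile 1 of 4) had a median centred log2 CPM of 0.087 in WT replicate 3 and -0.073 in WT replicate 4. Those with the longest (quartile 4) had -0.066 in WT replicate 3 and 0.052 in WT replicate 4. WT replicates 1 and 2 had 0.018 and -0.037 for the shortest genes, and core scores of -0.026 and 0.054. In KO replicates 1 to 4 the shortest genes had 0.031, -0.020, -0.0036 and 0.011. Of the core subunits tested 10 fell in quartile 1, against 4 of the cap subunits. WT replicate 3 also had low scores for endothelial (-0.28), astrocyte (-0.12) and thalamic (-0.40) markers, and KO replicate 4 had high scores for the same lists (0.25, 0.13 and 1.21). Oligodendrocyte (-0.035 and 0.24), microglia (-0.044 and 0.16) and blood (-0.11 and 0.47) markers had the same signs in these libraries. Cortex markers had the opposite signs (0.10 and -0.57). Choroid plexus (-1.21 and -0.57) and spiny neuron (-0.071 and -0.0062) markers were below 0 in both. KO replicate 1 had 0.21, 0.11 and 0.57 for endothelial, astrocyte and thalamic markers, with a score over all members of -0.0015. WT replicate 4 had -0.0017, -0.13 and -0.67 for these lists, with a score over all members of -0.024. The part of length and of tissue makeup in the proteasome values was not tested.

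The alpha subunits form the outer rings and the gate of the barrel. Psma3 had 18.2, 20.1, 20 and 17.6 CPM in KO replicates 1 to 4, against 18.5, 21.6, 21.4 and 20.4 CPM in WT replicates 1 to 4. The groups overlapped. On the log2 scale KO differed from WT by -0.11 (SE 0.077), with a 95% interval of -0.28 to 0.058. Psma7 had 79.5, 74.2, 76.0 and 68.8 CPM in KO replicates 1 to 4, against 78.8, 77.0, 90.6 and 70.9 CPM in WT replicates 1 to 4. Its highest value was again in WT replicate 3. The log2 fold change of -0.088 (SE 0.076) ran from -0.14 without WT replicate 4 to -0.018 without WT replicate 3. Psma5 had 12.1, 13.1, 12.9 and 14.0 CPM in KO replicates 1 to 4, against 12.1, 15.7, 14.7 and 13.1 CPM in WT replicates 1 to 4. Its log2 fold change of -0.10 (SE 0.094) ran from -0.16 without WT replicate 1 to -0.032 without WT replicate 2. The groups shared most of their range. The other constitutive alpha genes, Psma1, Psma2, Psma4 and Psma6, had log2 fold changes between -0.024 and -0.0072.

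The beta subunits hold the catalytic sites, and the lowest fold changes among core genes were here. Psmb4, a non-catalytic beta subunit, had 79.1, 80.3, 77.3 and 85.6 CPM in KO replicates 1 to 4, against 90.6, 104, 101 and 73.0 CPM in WT replicates 1 to 4. WT replicates 1 to 3 lay above all KO libraries, but WT replicate 4 lay below them all. Its log2 fold change of -0.19 (SE 0.10) had a 95% interval of -0.41 to 0.018. It ran from -0.29 without WT replicate 4 (edgeR adjusted p = 0.42) to -0.13 without WT replicate 2. Across 16 alternatives the lowest adjusted p of Psmb4 was 0.166 (edgeR), with replicate 4 of both genotypes left out. The log2 fold change was -0.32 in that fit.

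Psmb5, the chymotrypsin-like subunit and the main target of proteasome inhibitor drugs, had 18, 19.2, 20.8 and 17.3 CPM in KO replicates 1 to 4, against 19.1, 20.8, 25.4 and 20.1 CPM in WT replicates 1 to 4. The groups overlapped, and the highest value stood apart in WT replicate 3. Its log2 fold change was -0.18 (SE 0.10, 95% interval -0.39 to 0.032). It ran from -0.23 without WT replicate 1 or without KO replicate 3 to -0.085 without WT replicate 3. Psmb6, the caspase-like subunit, had 90.9, 82.5, 90 and 85.7 CPM in KO replicates 1 to 4, against 90, 91.5, 104 and 82.0 CPM in WT replicates 1 to 4. KO values lay within the WT range. The log2 fold change of -0.073 (SE 0.071) ran from -0.12 without WT replicate 4 to -0.0093 without WT replicate 3. Psmb10, whose expression is induced by interferon, averaged 29.2 CPM ± 3.07 in KO and 29.5 CPM ± 2.80 in WT (SD, n = 4 each). The pseudogenes of Psmb5, Psmb6 and Psmb7 that carry the parent symbol had at most 3 counts in a library, and copies under other names were not searched.

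The ATPases of the cap lay closest to 0. Psmc1 had 106, 103, 106 and 107 CPM in KO replicates 1 to 4, against 101, 101, 103 and 104 CPM in WT replicates 1 to 4. The groups nearly separated, with a log2 fold change of 0.048 (SE 0.047, 95% interval -0.054 to 0.15). Psmc2 had 102, 96.8, 97.7 and 92.0 CPM in KO replicates 1 to 4, against 96.6, 98.6, 106 and 95.9 CPM in WT replicates 1 to 4. Its groups overlapped, with a log2 fold change of -0.034 (SE 0.055) that ran from -0.057 without KO replicate 1 to -0.00058 without WT replicate 3. Psmc5 had 162, 160, 168 and 167 CPM in KO replicates 1 to 4, against 160, 157, 168 and 159 CPM in WT replicates 1 to 4, with a log2 fold change of 0.030 (SE 0.051) that ran from 0.017 without WT replicate 2 to 0.052 without WT replicate 3. The 6 ATPases lay between -0.034 and 0.048, 3 above 0 and 3 below.

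Of the 11 other cap subunits 9 were below 0. Psmd8, which encodes the lid subunit Rpn12, had the smallest unadjusted p of the members, 0.0657 in edgeR. It had 81.6, 79.9, 77.6 and 77.8 CPM in KO replicates 1 to 4, against 87.7, 85.0, 96.4 and 78.0 CPM in WT replicates 1 to 4. All KO values lay below 3 of the 4 WT values. Its log2 fold change of -0.13 (SE 0.065) had a 95% interval of -0.27 to 0.0099. It ran from -0.18 without WT replicate 4 to -0.077 without WT replicate 3, and was -0.17 without replicate 4 of both genotypes. Psmd6, which encodes the lid subunit Rpn7, had 59.2, 56.8, 52.8 and 54.6 CPM in KO replicates 1 to 4, against 58.5, 64.1, 62.3 and 54.1 CPM in WT replicates 1 to 4. The groups overlapped, with a log2 fold change of -0.10 (SE 0.066) that ran from -0.14 without WT replicate 4 to -0.062 without WT replicate 2. Psmd14, which encodes the deubiquitinase Rpn11 of the lid, had 88.5, 83.2, 85.1 and 79.0 CPM in KO replicates 1 to 4, against 84.6, 85.6, 95.7 and 86.5 CPM in WT replicates 1 to 4. Here too WT replicate 3 was highest. The log2 fold change of -0.070 (SE 0.059) ran from -0.10 without KO replicate 1 to -0.028 without WT replicate 3.

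**Figure D4:**
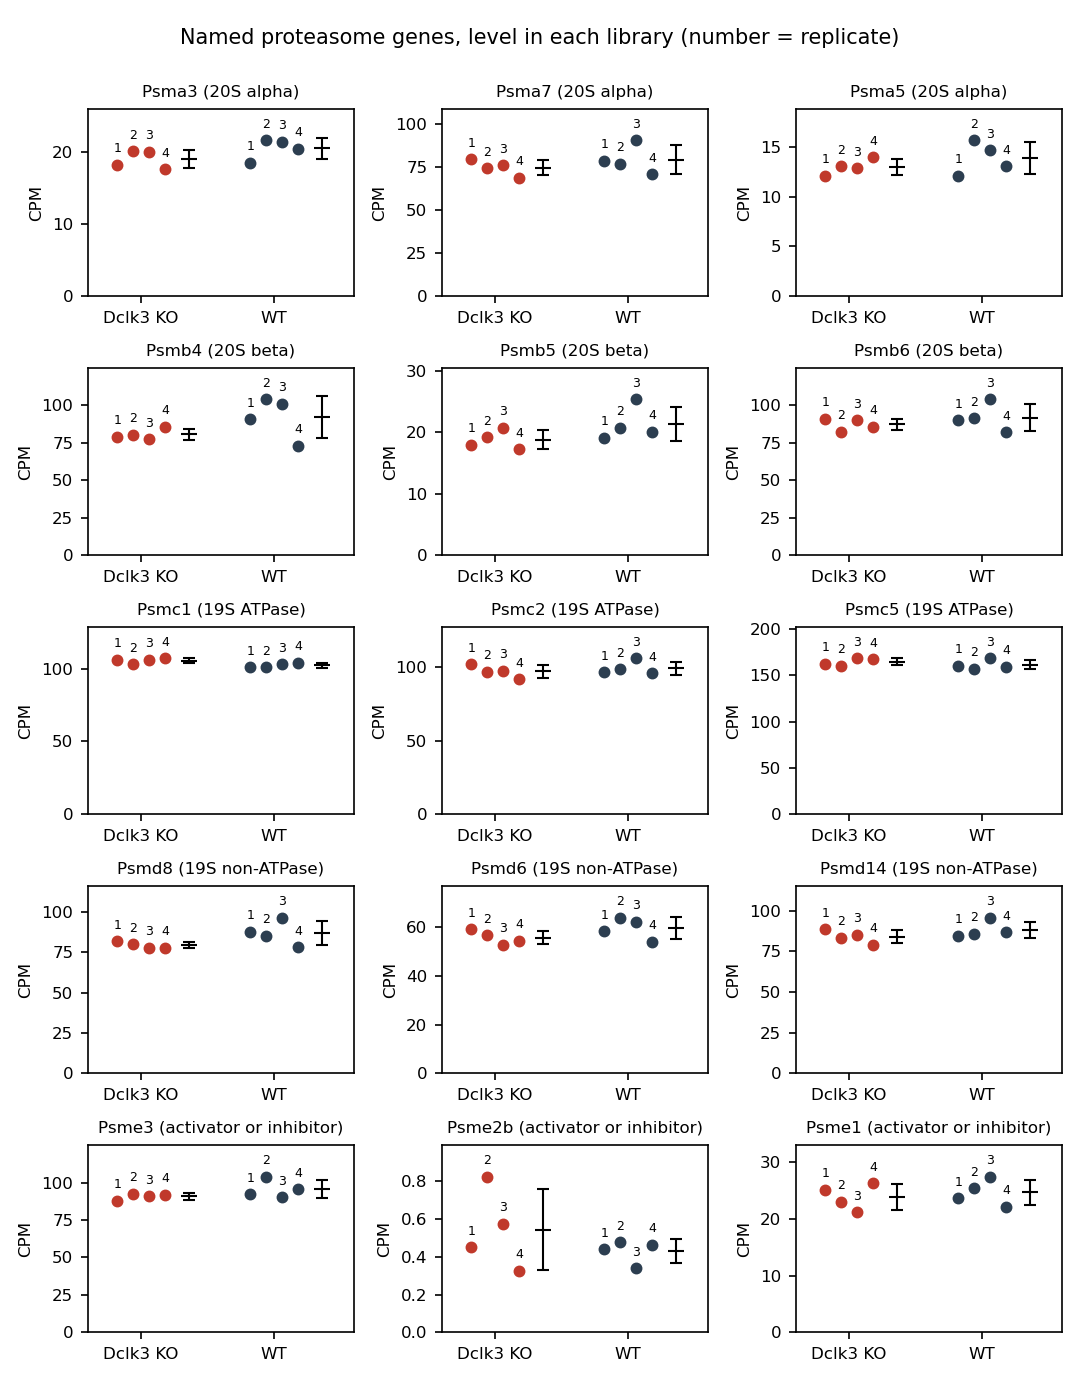
CPM (y axis, from 0) of the 15 named members in KO and WT (x axis), with points for the libraries numbered by replicate and bars for the mean ± SD of 4. KO and WT points overlap in every panel, and for Psmb5 WT replicate 3 lies at 25.4 CPM above all other libraries.

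Activators and the inhibitor showed no shared direction. Psme3 had 87.8, 92.6, 90.9 and 91.9 CPM in KO replicates 1 to 4, against 92.3, 104, 90.1 and 95.6 CPM in WT replicates 1 to 4. The groups overlapped, with a log2 fold change of -0.073 (SE 0.057) that ran from -0.10 without WT replicate 3 to -0.030 without WT replicate 2. Psme1, a subunit of the interferon-inducible PA28 ring, had 25.2, 23.1, 21.2 and 26.3 CPM in KO replicates 1 to 4, against 23.7, 25.4, 27.5 and 22.2 CPM in WT replicates 1 to 4. The ranges nearly coincided, with a log2 fold change of -0.043 (SE 0.087) that turned to 0.012 without KO replicate 3 or without WT replicate 3. Its partner Psme2 averaged 9.37 CPM ± 0.358 in KO and 9.27 CPM ± 0.580 in WT (SD, n = 4 each). Psme4, which encodes PA200, averaged 65.8 CPM ± 5.27 in KO and 67.8 CPM ± 9.43 in WT. Psme2b, a retrogene copy of Psme2, had 9 to 23 counts per library and a log2 fold change of 0.33 (SE 0.31), which was 0.075 without KO replicate 2 and 0.51 without KO replicate 4. The copies are near-identical, and reads of both copies may have been divided by the counting.

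The 3 chaperones of cap assembly and Psmc3ip are counted apart. Psmd5 averaged 50.5 CPM ± 2.02 in KO and 53.8 CPM ± 2.14 in WT (SD, n = 4 each), which is -0.092 on the log2 scale (SE 0.056). Psmd9 had a log2 fold change of -0.080 and Psmd10, which encodes gankyrin, one of 0.023. Psmc3ip had 2.54, 2.55, 2.36 and 2.34 CPM in KO replicates 1 to 4, against 3.43, 2.55, 3.04 and 2.80 CPM in WT replicates 1 to 4. Its groups did not overlap, but KO replicate 2 and WT replicate 2 were equal to the digits shown, and the adjusted p was 0.999 (edgeR) with a log2 fold change of -0.27 (SE 0.14).

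Partners of the proteasome outside the symbol rule were read from lists. In each list 0 genes passed the threshold in edgeR, and 0 had an unadjusted p under 0.05. Of 5 assembly chaperones tested, 3 were above 0, and Pomp, the maturation factor of the core, averaged 82.8 CPM ± 2.58 in KO and 77.2 CPM ± 3.18 in WT (SD, n = 4 each), which is 0.10 on the log2 scale. Psmg4 had -0.25 at 2.72 CPM in KO and 3.23 CPM in WT. Among 10 cap subunits and bound enzymes 7 were below 0, with the small cap subunit gene Sem1 at 0.15 and the ubiquitin receptor gene Adrm1 at -0.18. Of 10 shuttle and unfoldase genes 6 were below 0, with Ddi2, the protease that activates the Nfe2l1 factor, at -0.13 and Faf2 at 0.045. The 11 genes for transcription factors of proteasome genes and their partners had a median log2 fold change of -0.040, with Foxo4 at 0.14 and Mafg at -0.065.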

How the data were processed

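RNA was measured in 8 striatal libraries, 4 KO and 4 WT. The authors deposited raw read counts per Ensembl gene. Per the labels' protocols, the libraries were poly(A) selected and stranded, and per the submitters' processing notes bcl2fastq 2.17.1.14 and the mm10 build were used. The sources used here name no aligner, counter or strand setting. Of the members, 17 overlap a gene on the opposite strand and 9 a gene on the same strand, so their counts may hold reads of another gene.

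Of the gene IDs, 31292 matched the annotation and 125, with 0.0436% of the counts, did not. Genes were filtered with filterByExpr (minimum count 10), which kept 16511 and removed 14906. They were scaled by TMM and tested with edgeR 4.0.16 (robust quasi-likelihood test, R 4.3.3) with Benjamini-Hochberg adjustment over all genes tested and a threshold of 0.05. The procedure was tested on simulated data. For class scores, a prior count of 2 was added before taking log2 CPM. Library totals ran from 24441242 to 37145559 counts, at which 3 counts correspond to 0.0808 to 0.123 CPM. Replicates of a group differed by more than sampling noise in all 12 pairs (chi-square per degree of freedom 7.07 to 32.1). Nothing says that the striata came from different mice, so the p-values measure the spread between these libraries.

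In each role class the 3 members with the smallest edgeR p were named with all values, and in each pathway list the 2 genes with the smallest p. The result of 1 pathway list is not reported here. Members with a mean under 1 CPM, chaperones and Psmc3ip were named apart. Members and lists were chosen with earlier results of these data known. Alternatives were DESeq2 1.42.0, limma-voom (limma 3.58.1), other scalings, filters and lengths, a replicate block and leaving out each library. The principal transcript length and the omission of replicate 4 of both genotypes were added after seeing the data.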

Additional observations from a re-analysis of the deposited data

Results flagged for a closer look

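Within the 88 groups of 4 libraries examined, 1 library stood far from the other 3 in 2 cases, and chance alone gives about 1 such case in 20 groups. Psmc3, an ATPase of the cap, had 151 CPM in KO replicate 3, against 140, 140 and 141 CPM in KO replicates 1, 2 and 4, a gap of 0.941 of the range. Psmd14, the lid deubiquitinase, had 95.7 CPM in WT replicate 3, against 84.6, 85.6 and 86.5 CPM in WT replicates 1, 2 and 4, a gap of 0.832 of the range.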

How the results depend on the processing

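Under the 16 alternatives to the fit, 0 members passed the adjusted threshold in each, and at an unadjusted p under 0.05 the count ran from 0 to 3 (3 with limma-voom, against 4.26% of all genes in that fit, and 3 without WT replicate 4, against 6.67%). The median log2 fold change of the members ran from -0.054 to -0.0070 with 1 library left out, that of the core from -0.064 to -0.0096, that of the cap from -0.050 to -0.0018, and core minus cap from -0.027 to -0.00013. For the activators and inhibitor it was -0.023, and it was 0.025 with limma-voom and -0.049 to 0.029 with 1 library left out; the cause was not tested. The number of all genes past the threshold was 1, but 3 with the DESeq2 Wald test, 3 without replicate 4 of both genotypes and 1 to 2 with 1 library left out (2 without WT replicate 1). The core to cap ratio per length was 0.862 with the exon union, 0.947 with the longest transcript and 1.04 with the principal transcript, which differ in length by construction. Of 318 values of the 20 named members, 5 turned sign: Psmd10 (0.023) had -0.0022 without replicate 4 of both genotypes, -0.023 without KO replicate 1 and -0.0092 without WT replicate 4, and Psme1 (-0.043) had 0.012 without KO replicate 3 and 0.012 without WT replicate 3. With 1 library left out, Psmd10 ran from -0.023 to 0.063 and Psme1 from -0.092 to 0.012. Dclk3 had -2.07 with no filter on low counts (edgeR adjusted p = 0.0647). Same-numbered libraries had correlations of 0.0373, 0.0205, 0.0532 and -0.276, so the numbers were not taken as pairs. With the replicate block the members' median was -0.037, 0 members and 1 gene of all passed the threshold, and 1 member had an unadjusted p under 0.05, against 4.26% of all genes. With 4 libraries a group, changes within the intervals given remain possible.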
